A study of Mus musculus with 1536 samples.

Results

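The insulin-like growth factor (IGF) family was followed across single lymphatic endothelial cells (LECs) of the mouse nasopharynx. It was defined as the ligand *Igf1*, the receptors *Igf1r* and *Igf2r* and the binding proteins *Igfbp2* to *Igfbp7*, 9 genes in all. The matrix of 23168 genes held 8 of them, and *Igfbp2* was not analysed here. The genes were picked because different members lead different clusters of these cells, so their levels are given as a description, with no test. Cells were grouped by 2 other genes: *Stab2*, which encodes a scavenger receptor for hyaluronan, and *Fndc1*, which encodes a protein with fibronectin type III domains. A cell was placed in a gate when its value for that gene was above 1, on the scale of the natural log of 1 plus reads per 10000 reads of the cell.

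LECs were sorted as CD31+PDPN+ cells from the nasopharyngeal mucosa of 30 pooled C57BL/6 mice aged 10–12 weeks, untreated as far as the labels say, and sequenced with Smart-seq3, a plate-based method that reads full-length cDNA of each cell. The labels name neither mouse nor plate for a column, so all cells were 1 sample and the SDs given are the spread over cells. Of the adult cells, 29.9% had *Stab2* alone above 1 (95% exact interval of 26.9–33.1%), 15.6% had *Fndc1* alone above 1 (13.2–18.2%), 11 cells had both above 1 and 53.2% had neither (49.8–56.6%). The numbers of cells behind these shares are given with the processing. Intervals of shares are Clopper–Pearson intervals and cover counting error only. The sorted identity was checked against 6 LEC markers. *Pecam1* and *Pdpn* encode the proteins used for sorting, CD31 and PDPN, so they are no independent check. *Flt4*, *Pecam1*, *Cdh5*, *Prox1*, *Pdpn* and *Lyve1* were found in 99.8%, 99.6%, 99.2%, 97.7%, 95.2% and 86.8% of cells, and no cell lacked reads for the whole list. Of 6 immune genes, *Ptprc* and *Cd3e* were at 0 in every cell, and *Cd68*, *Lyz2*, *Csf1r* and *C1qa* were found in 15.7%, 7.96%, 1.66% and 0.831% of cells. Of 5 blood endothelial genes, *Emcn* and *Plvap* were found in 94.2% and 77.8% of cells, and *Vwf*, *Sox17* and *Esm1* in 5.11%, 4.99% and 0.356%.

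Depth lay between 7433 and 3524358 reads per cell. The median was 358023.5 reads in the *Stab2* gate, 457847 in the *Fndc1* gate and 334826.5 in cells of neither gate. A gene with few reads can therefore be missed in a shallow cell, and shares are also given after each cell was thinned to 20000 reads, which left out 51 shallower cells (6.06%).

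IGF1 and IGF2 are secreted growth factors that act through IGF1R, a receptor tyrosine kinase. IGF2R binds IGF2 and proteins tagged for lysosomes and has no kinase. IGF binding proteins hold the ligands outside the cell, can prolong their life or keep them from the receptor, and are cut by proteases such as pappalysin, the product of *Pappa*. IGFBP7 binds IGFs more weakly and is known as a protein of vascular basement membranes.

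The binding proteins share an amino-terminal domain with a run of cysteines, which makes them 1 family at the level of sequence. For 4 of the binding proteins the mean levels differed most between the gates, with values over cells that overlapped. Their coding bases of this run, read from GENCODE M21 transcripts on GRCm38, are shown with the cysteine codons in capitals.
*Igfbp3*: TGCggcTGCTGCctgactTGC
*Igfbp4*: TGCggtTGTTGCgccactTGC
*Igfbp5*: TGTggcTGCTGCatgactTGC
*Igfbp7*: TGCgggTGCTGCccggtgTGT
Each run lies in exon 1 of its gene, at chr11:7213566-7213586 (minus strand) for *Igfbp3*, chr11:99041653-99041673 (plus strand) for *Igfbp4*, chr1:72873966-72873986 (minus strand) for *Igfbp5* and chr5:77407826-77407846 (minus strand) for *Igfbp7*. The runs were found by searching the translated sequence for 4 cysteines at this spacing with a glycine after the first. The shared places of the cysteines and of the glycine are therefore set by the search. No run of this form, glycine included, was found in the coding sequence of *Igfbp6*. That sequence had 16 cysteine codons against 18 in *Igfbp3*, *Igfbp5* and *Igfbp7* and 20 in *Igfbp4*.

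The 100 bases before the RefSeq start (GRCm38.p6) of the same genes are shown because they are the stretches next to which transcription of these unlike members begins. Capitals mark the TATA box in its usual form TATAAA, its variant TATATA or the AT-rich variant TTTAAA, searched on both strands.
*Igfbp3*: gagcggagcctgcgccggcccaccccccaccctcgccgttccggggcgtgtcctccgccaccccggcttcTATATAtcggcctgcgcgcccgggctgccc
*Igfbp4*: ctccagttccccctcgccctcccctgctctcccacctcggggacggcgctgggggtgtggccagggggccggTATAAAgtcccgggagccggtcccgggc
*Igfbp5*: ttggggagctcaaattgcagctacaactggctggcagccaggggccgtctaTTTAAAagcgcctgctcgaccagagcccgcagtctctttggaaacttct
*Igfbp7*: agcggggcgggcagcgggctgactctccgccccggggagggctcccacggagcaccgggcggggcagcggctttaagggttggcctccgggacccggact
These windows lie at chr11:7213924-7214023 (minus strand), chr11:99041144-99041243 (plus strand), chr1:72874866-72874965 (minus strand) and chr5:77408046-77408145 (minus strand). The marked motif starts 30 bases before the start in *Igfbp3*, 28 bases in *Igfbp4* and 49 bases in *Igfbp5*. In *Igfbp5* the GENCODE start lies 19 bases further upstream than that of RefSeq. None of the 3 motifs was in the *Igfbp7* window, which held GGGCGG 3 times on either strand. Across 32851 windows of the same length, TATAAA was in 5.56%, TATATA in 2.20%, TTTAAA in 4.39% and GGGCGG in 24.7%. A match of letters is a description and no evidence of a bound factor.

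The ligand *Igf1* (chr10:87858265-87937042) was found in few cells. Its value over all cells ran from 0 to 2.13 with a median of 0, and 19.7% of cells had reads. Cells of neither gate averaged 0.178 ± 0.408 (SD over cells), against 0.0801 ± 0.228 in the *Fndc1* gate and 0.0676 ± 0.261 in the *Stab2* gate, and the spread over cells was wider than these differences. It was found in 24.8%, 17.6% and 12.7% of those cells, and after thinning in 17.3%, 9.68% and 7.23%. None of the 11 cells above both thresholds had *Igf1* reads, which by the rule of 3 counts in 11 allows a share of cells with reads of up to 27.3%, for counting error only. Cells with *Igf1* reads had a median of 575612 reads, and cells without had 295130. *Igf2*, the other ligand, was found in 7.48% of cells, with a highest value of 1.23.

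*Igf1r* (chr7:67952827-68233668), the signalling receptor, was found in most cells of each gate. Values ran from 0 to 3.19 with a median of 0.398. The *Stab2* gate averaged 0.704 ± 0.666, cells of neither gate 0.552 ± 0.605 and the *Fndc1* gate 0.451 ± 0.543, each within 1 SD of the next, and the receptor was found in 74.2%, 70.1% and 63.4% of them. *Igf2r* (chr17:12682406-12769664) was sparser, with a highest value of 2.14, and had the opposite order. It averaged 0.190 ± 0.390 in the *Fndc1* gate, 0.153 ± 0.351 in neither and 0.125 ± 0.327 in the *Stab2* gate, and was found in 38.9%, 33.5% and 25% of the cells. After thinning it averaged 0.150, 0.147 and 0.101 and was found in 21.8%, 18.1% and 11.5%. Mean reads per 10000 were then 0.262 in the *Fndc1* gate and 0.280 in neither, so the order of these 2 turned. Cells with *Igf2r* reads had a median of 622007 reads, and cells without had 249149. *Igf1* and *Igf1r* were found together in 14.8% of cells (12.5–17.4%), *Igf1r* alone in 55.7% and *Igf1* alone in 4.87%. Cells with *Igf1r* reads also had more reads in all, with a median of 466092 against 170945.

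*Igfbp4* (chr11:99041244-99054392), whose product is the main substrate of pappalysin, was the most widely found member, with reads in 92% of cells (90–93.8%). In the *Stab2* gate it ran from 0 to 4.25 with a median of 2.49 and a mean of 2.40 ± 0.800. In the *Fndc1* gate it ran from 0 to 3.27 with a median of 1.48 and a mean of 1.46 ± 0.909, and in neither from 0 to 3.73 with a median of 1.39 and a mean of 1.30 ± 0.972. The *Stab2* gate was the high one, with 94.4% of its cells above 1 against 67.9% and 61.6%, but the ranges overlapped and the latter gates lay within 1 SD of each other. Cells above both thresholds were like the *Stab2* gate, at 2.27 ± 0.731 (n = 11).

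*Igfbp5* (chr1:72857932-72874884), the product of which binds extracellular matrix as well as IGFs, had the widest spread. In the *Stab2* gate its median was 0.0333 and its mean 0.283 ± 0.665, and 8.33% of cells (5.23–12.5%) were above 1. In the *Fndc1* gate the median was 1.63 and the mean 1.75 ± 1.49, and in neither the median was 0.861 and the mean 1.39 ± 1.44, with 60.3% and 48.4% of cells above 1. Low values were common in all gates: 38.1% of cells in the *Stab2* gate had no *Igfbp5* reads, and another 47.6% had a value of at most 0.5. The highest cells were 4.26, 4.68 and 4.96 in the *Stab2* gate, the *Fndc1* gate and neither, so a few *Stab2* cells reached the level of the others. None of the 11 cells above both thresholds exceeded 0.308.

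*Igfbp7* (chr5:77349240-77408041) was also highest in the *Stab2* gate. Its mean was 1.59 ± 0.792 in the *Stab2* gate, 1.06 ± 0.780 in neither and 0.632 ± 0.676 in the *Fndc1* gate, with medians of 1.75, 1.06 and 0.480 and highest cells of 3.50, 3.20 and 2.39. It was found in 94.8%, 84.8% and 65.6% of the cells. Unlike *Igfbp4*, it was lower in the *Fndc1* gate than in neither, by less than 1 SD. The exons of *Igfbp7* share 85 bases (7.03% of their length) with *Polr2b* on the other strand, and whether strand was used in counting is not stated.

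*Igfbp3* (chr11:7206086-7213923), the main carrier of IGFs in blood plasma, was found in 69 cells, of which 46 were in the *Fndc1* gate. That is 35.1% of the *Fndc1* gate (27–43.9%) and compares with 2.38% (0.879–5.11%) of the *Stab2* gate and 3.57% (2.05–5.74%) of neither. The *Fndc1* gate ran from 0 to 3.36 with a median of 0 and a mean of 0.401 ± 0.705, and the other gates averaged 0.0111 ± 0.125 and 0.0290 ± 0.219. After thinning it was found in 26.6%, 0.851% and 1.43% of the *Fndc1* gate, the *Stab2* gate and neither.

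*Igfbp6* (chr15:102144362-102149511), which binds IGF2 better than IGF1, was found in 22 cells (2.61%). It was present in 8 cells of the *Fndc1* gate (6.11%, 2.67–11.7%), 11 of neither (2.46%, 1.23–4.35%) and 3 of the *Stab2* gate (1.19%, 0.246–3.44%). Its highest value was 1.97. Summed reads of 6 fibroblast genes averaged 6.86 per 10000 in the cells with *Igfbp6* and 0.248 in those without. A single cell gave most of that, and the mean without it was 0.381 over 21 cells.

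**Figure D1:**
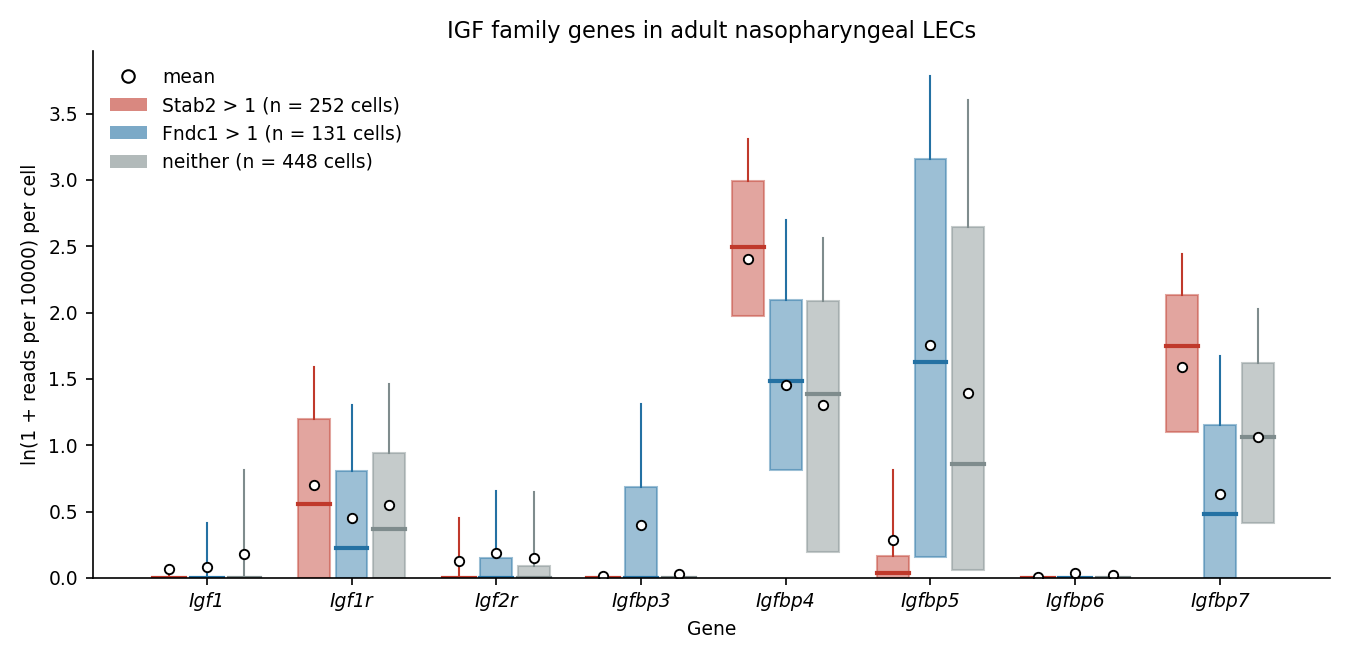
Values of the 8 genes in cells with *Stab2* above 1, *Fndc1* above 1 and neither (y axis, natural log of 1 plus reads per 10000). Boxes span the middle 50% of cells with a line at the median, upper lines reach the 90th percentile and circles are means; *Igfbp4* and *Igfbp7* are highest in the *Stab2* gate, where *Igfbp5* has a median of 0.0333, and *Igfbp3* stands above 0 for the *Fndc1* gate.

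**Figure D2:**
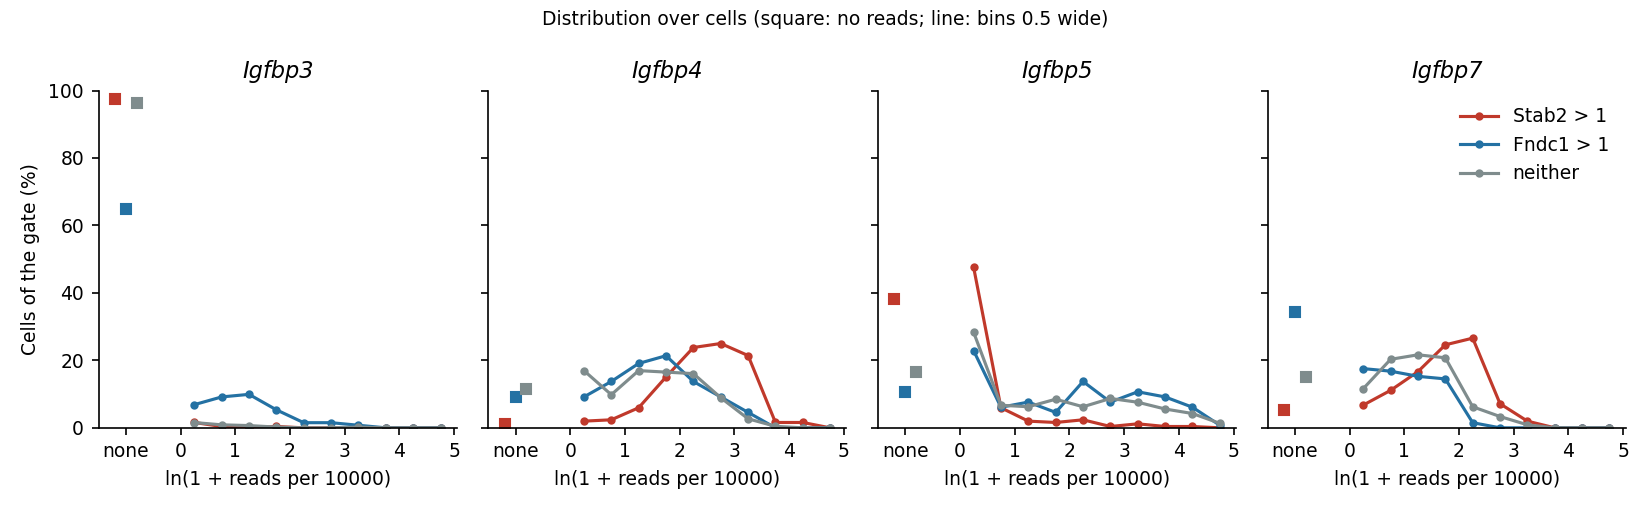
Share of the cells of each gate (y axis, percent) by value (x axis, natural log of 1 plus reads per 10000, bins 0.5 wide), with squares for cells without reads. *Igfbp5* has a long right side in the *Fndc1* gate and in neither, whereas 47.6% of *Stab2* cells sit in the lowest bin.

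Read counts depend on transcript length, so genes were compared with each other as mean reads per 10000 per kilobase of merged exon. Over all cells the order was *Igfbp7* (2.89 ± 3.4), *Igfbp4* (1.71 ± 1.93), *Igfbp5* (1.43 ± 3.07), *Igfbp3* (0.0787 ± 0.530), *Igf1r* (0.0748 ± 0.119), *Igfbp6* (0.0320 ± 0.316), *Igf2r* (0.0289 ± 0.0835) and *Igf1* (0.0243 ± 0.0805), and each neighbouring pair lay within 1 SD over cells. The leading gene differed between gates. *Igfbp7* led the *Stab2* gate at 4.52 per kilobase, followed by *Igfbp4* at 3.06, and *Igfbp5* was at 0.205. *Igfbp5* led the *Fndc1* gate at 2.41, followed by *Igfbp4* at 1.20, *Igfbp7* at 1.16 and *Igfbp3* at 0.382. Cells of neither gate had *Igfbp7* first at 2.45, then *Igfbp5* at 1.86 and *Igfbp4* at 1.08. Summed over the 5 binding proteins the level was 7.80, 5.21 and 5.46 per kilobase in the *Stab2* gate, the *Fndc1* gate and neither. *Igfbp5* made up 2.63%, 46.3% and 34% of these sums, and *Igfbp7* 57.9%, 22.3% and 44.8%. The order depended on this scaling. In reads per 10000 not divided by length the sums were 20.3, 22.4 and 19.1, so that the *Fndc1* gate was highest, and the member with most reads was *Igfbp4* in the *Stab2* gate (66.8%, with *Igfbp7* at 27%) and *Igfbp5* in the *Fndc1* gate (64.6%) and in neither (58.6%).

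**Figure D3:**
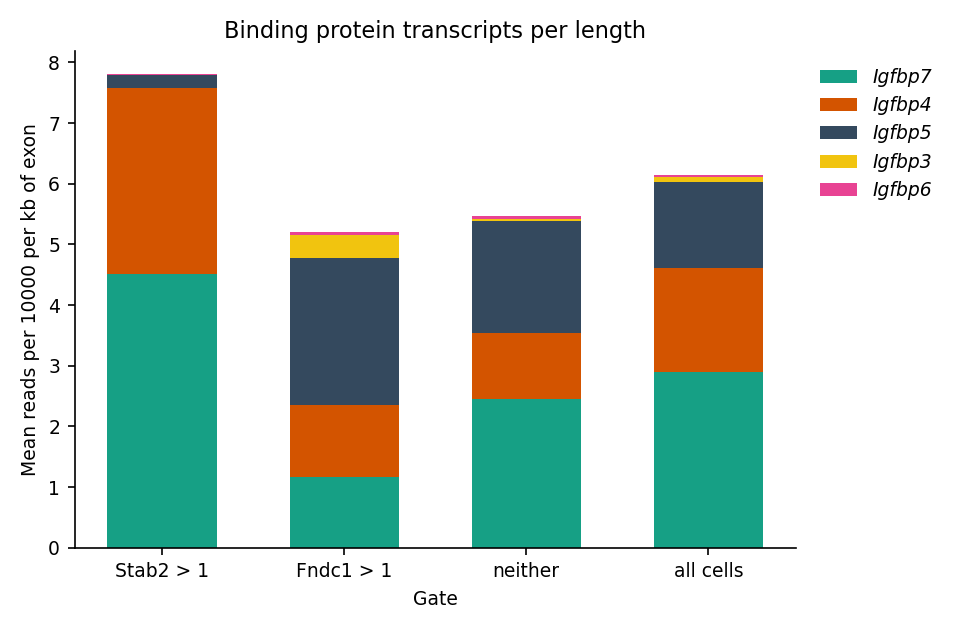
Mean reads per 10000 per kilobase of exon (y axis) of the 5 binding proteins, stacked, by gate and for all cells (x axis). The stack reaches 7.80 in the *Stab2* gate, mostly *Igfbp7* and *Igfbp4*, and 5.21 in the *Fndc1* gate, where *Igfbp5* is the largest piece.

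Most cells held several binding proteins at once. Reads of 3 of the 5 genes were found in 59% of cells (55.6–62.4%), of 2 in 32.1% and of none in 2 cells. In the *Stab2* gate 88.9% of cells (84.3–92.5%) had *Igfbp4* above 1 with *Igfbp5* not above 1, and the reverse held in 7 cells (2.78%). In the *Fndc1* gate both were above 1 in 40.5% of cells (32–49.4%), *Igfbp4* alone in 27.5% and *Igfbp5* alone in 19.8%. In neither gate both were above 1 in 27.2% of cells (23.2–31.6%), *Igfbp4* alone in 34.4% and *Igfbp5* alone in 21.2%.

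Members were then placed along the gate genes themselves, to see how the levels ran around the threshold of 1. Just below it, in the 47 cells with *Stab2* between 0.5 and 1, *Igfbp4* averaged 1.77 ± 0.959 and *Igfbp5* 1.16 ± 1.38. Just above it, in the 58 cells between 1 and 1.5, *Igfbp4* averaged 2.11 ± 0.906 and *Igfbp5* 0.519 ± 0.946. Cells with *Stab2* above 2 had *Igfbp4* at 2.56 ± 0.720 and *Igfbp5* at 0.171 ± 0.428. Around the *Fndc1* threshold, *Igfbp3* averaged 0.0883 ± 0.476 in the 50 cells below and 0.114 ± 0.343 in the 45 cells above. It was found in 6% and 15.6% of these cells, and the highest cell below the threshold was at 3.25. *Igfbp3* reached 0.671 ± 0.895 where *Fndc1* was above 2. There *Igfbp3* was found in 56% of 50 cells, and *Igfbp7* was at 0.386 ± 0.598, against 1.27 ± 0.830 in cells without *Fndc1* reads. The cells without *Fndc1* reads include most of the *Stab2* gate, where 18.3% of cells had *Fndc1* reads and *Igfbp7* averaged 1.59 ± 0.792. Cells of neither gate averaged 1.06 ± 0.780.

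*Lyve1*, a hyaluronan receptor high in capillary LECs, also ran with the binding proteins. From cells without *Lyve1* reads to cells above 3, *Igfbp4* went from 1.5 ± 1.07 to 2.12 ± 0.901 and *Igf1* from 0.176 ± 0.457 to 0.0350 ± 0.178. *Igfbp5* did not run one way: it averaged 1.20 ± 1.42 without *Lyve1* reads, 1.44 ± 1.57 between 1 and 2 and 0.647 ± 1.03 above 3. Since *Stab2* and *Lyve1* are both high in part of these cells, the split was repeated within each gate. Among cells of neither gate, those with *Lyve1* not above 1 had *Igfbp5* at 1.62 ± 1.5 and *Igfbp4* at 1.07 ± 0.911, and those above 1, 37.1% of the cells, had 1.002 ± 1.27 and 1.7 ± 0.944. Within the *Stab2* gate *Igfbp4* was at 2.47 ± 0.832 with *Lyve1* above 1 and 2.33 ± 0.756 without, and *Igfbp5* at 0.326 ± 0.759 and 0.230 ± 0.529. Within the *Fndc1* gate *Igfbp3* was found in 38 of 92 cells (41.3%, 31.1–52.1%) with *Lyve1* above 1 and in 8 of 39 (20.5%, 9.30–36.5%) without.

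**Figure D4:**
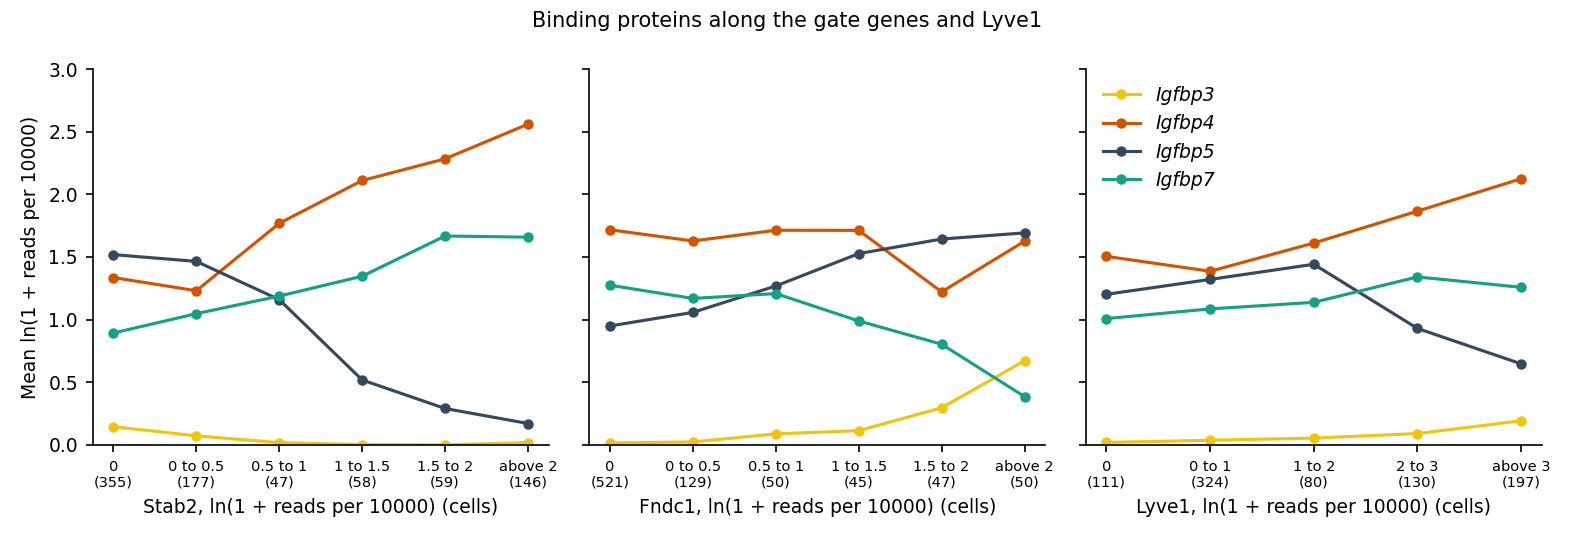
Mean value of *Igfbp3*, *Igfbp4*, *Igfbp5* and *Igfbp7* (y axis, natural log of 1 plus reads per 10000) in cells binned by *Stab2*, *Fndc1* and *Lyve1* (x axes, same scale, with the number of cells). Along *Stab2*, *Igfbp4* goes from 1.34 to 2.56 and *Igfbp5* from 1.52 to 0.171. Along *Fndc1*, *Igfbp3* and *Igfbp5* are higher and *Igfbp7* is lower in the last bin than in the first. That first *Fndc1* bin includes most cells of the *Stab2* gate.

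Cells of neither gate were further split by *Foxp2*, a forkhead factor, and by the valve genes *Cldn11* and *Gja4*, which encode a claudin and a connexin. *Igfbp5* averaged 1.81 ± 1.58 in the 23.7% of these cells with *Foxp2* above 1 and 1.26 ± 1.38 in the rest. *Igf1* averaged 0.269 ± 0.479 and 0.149 ± 0.380 in these cells. With *Gja4* above 1 (33% of the cells), *Igfbp5* was at 1.61 ± 1.46 and *Igf1* at 0.26 ± 0.519, against 1.28 ± 1.43 and 0.137 ± 0.335 in the rest. *Cldn11* split *Igfbp5* less, at 1.44 ± 1.56 in the 24.3% of cells above 1 and 1.37 ± 1.41 in the rest. Over all gates, *Igf1* was found in 21 of 52 cells with both valve genes above 1 (40.4%, 27–54.9%) and in 22 of 99 with *Cldn11* alone (22.2%, 14.5–31.7%). All these differences were smaller than 1 SD over cells.

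To set the members against other genes, the log2 ratio of mean reads per 10000, each plus 0.1, was taken between gates, and a gene counted as higher or lower past 2-fold if 10% or more of cells in one gate or the other had its reads. In the *Stab2* gate against neither, 6 members could be counted and 1 was higher, *Igfbp4* with a log2 ratio of 1.48, where 1.33% of 10017 genes were. *Igfbp5* was the 1 member lower, at −3.08, where 1.6% of genes were. *Igfbp7* was at 0.86, *Igf1r* at 0.44, *Igf2r* at −0.21 and *Igf1* at −0.97, which was −1.14 and past 2-fold after thinning and −0.26 with a pseudocount of 1, and *Igfbp3* and *Igfbp6* were found in too few cells. In the *Fndc1* gate against neither, 1 of 7 members was higher, *Igfbp3* at 2.71, where 0.519% of 10020 genes were. *Igfbp3* entered this count only through the *Fndc1* gate, with reads in 35.1% of *Fndc1* cells against 3.57% of neither. With a pseudocount of 1 the ratio of *Igfbp3* was 0.999, just short of 2-fold. *Igfbp7* and *Igf1* were lower, at −1.02 each, where 0.559% of genes were. Both lie next to the 2-fold line, and with a pseudocount of 1 they were at −0.72 and −0.26 and no longer past it. *Igfbp5* was at 0.37, *Igf2r* at 0.28, *Igfbp4* at 0.14 and *Igf1r* at −0.39.

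Between the *Stab2* and *Fndc1* gates, *Igfbp7* (1.89) and *Igfbp4* (1.34) were higher, where 2.52% of 10153 genes were, and *Igfbp3* (−3.37) and *Igfbp5* (−3.45) were lower, where 2.22% were. *Igf1r* was at 0.82, *Igf1* at 0.05 and *Igf2r* at −0.49. With a pseudocount of 1 *Igfbp3* was at −1.10. Here too it was counted only through the *Fndc1* gate, with reads in 35.1% of *Fndc1* cells against 2.38% of *Stab2* cells. The 3 comparisons share cells, and the members were chosen for differing between such cells, so nothing is read from these shares. The median log2 ratio of the members was 0.11, 0.14 and 0.05 in the order given, against 0.04, 0.00 and 0.03 over all genes counted.

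Pathway genes outside the family were mostly within 2-fold, as were most of all genes counted. Of 22 listed, 19 were in the matrix, and 11, 10 and 11 could be counted in the 3 comparisons. Of these 0, 0 and 1 were higher, where 1.33%, 0.519% and 2.52% of all genes were. Lower were 1, 0 and 1, where 1.6%, 0.559% and 2.22% of all genes were. With so few genes counted, nothing is read from these numbers. *Stc1*, whose product inhibits pappalysin, was lower in the *Stab2* gate, at −1.52 against neither and −1.81 against the *Fndc1* gate, and was found in 13.5% of *Stab2* cells, 28.8% of neither and 42% of *Fndc1* cells. *Pappa* itself was at 0.88 against neither and 0.80 against the *Fndc1* gate. *Htra1*, a secreted serine protease, was at 1.16 between the *Stab2* and *Fndc1* gates. It was counted through the *Stab2* gate alone, with reads in 10.7% of *Stab2* cells and 1.53% of *Fndc1* cells. No pathway gene passed 2-fold in the *Fndc1* gate against neither. The signalling genes *Insr*, *Shc1*, *Grb10*, *Akt1*, *Pik3r1* and *Foxo1* stayed within 2-fold in all comparisons, and the adaptors *Irs1* and *Irs2* were found in 0.594% and 2.14% of cells.

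Of 12 other genes with an IGFBP-type domain, 11 were in the matrix and 5, 5 and 6 could be counted in the 3 comparisons. Higher were 0, 1 and 2 of them, where 1.33%, 0.519% and 2.52% of all genes were. In each comparison 1 was lower, where 1.6%, 0.559% and 2.22% of all genes were. These counts are too small to read anything from. *Htra1*, given above, is on this list too. *Nov*, a matricellular protein gene, was at 1.52 in the *Fndc1* gate against neither and at −1.98 in the *Stab2* gate against the *Fndc1* gate. *Ctgf*, of the same family, was at −1.06 and 1.97 in these comparisons. *Nov* was counted only through the *Fndc1* gate, with reads in 22.9% of *Fndc1* cells, 7.37% of neither and 1.59% of *Stab2* cells. *Kazald1* was lower in the *Stab2* gate than in neither, at −1.13. *Cyr61* and *Crim1* were found in 93.2% and 89.8% of cells and stayed within 2-fold in all 3 comparisons.

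**Figure D5:**
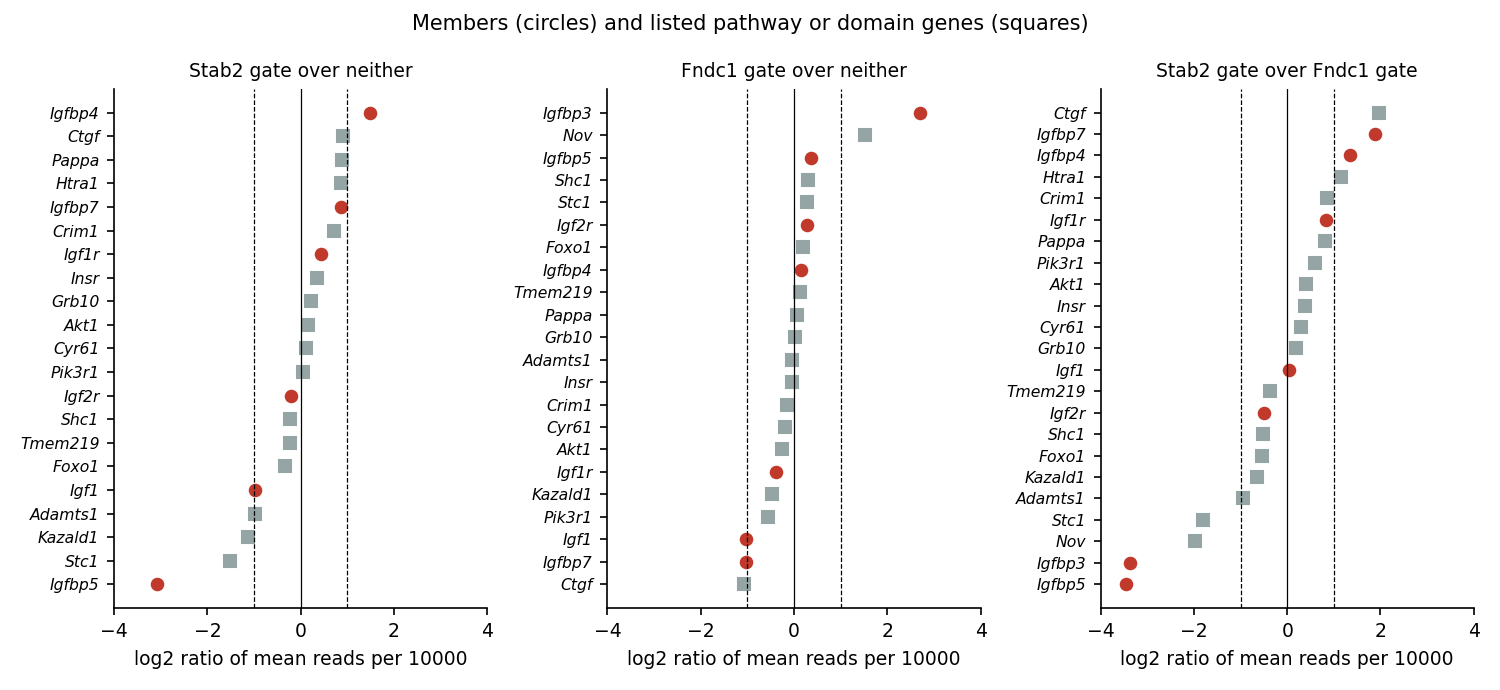
Log2 ratio of mean reads per 10000 plus 0.1 (x axis) for members (circles) and listed pathway or domain genes (squares) with reads in 10% or more of cells in one gate or the other (y axis, sorted by ratio), in 3 comparisons of gates, with dashed lines at 2-fold. *Igfbp5* lies lowest in the *Stab2* gate against neither, at −3.08, and *Igfbp3* highest in the *Fndc1* gate against neither, at 2.71.

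Across the thinned cells, ranks of members were compared as a description. All values of a cell are shares of the same reads of that cell. *Igfbp4* and *Igfbp5* had a Spearman's rho of −0.38, *Igfbp5* and *Igfbp7* −0.35 and *Igfbp4* and *Igfbp7* 0.27. Within the gates the first pair had −0.27 in the *Stab2* gate, −0.20 in the *Fndc1* gate and −0.20 in neither, the second −0.08, −0.28 and −0.27 and the third 0.10, 0.02 and 0.21. *Igf1* and *Igf1r* had 0.01. Among 7714 genes found in at least 10% of thinned cells, those most like *Igfbp4* were *Gm525* (0.55), *Aqp1* (0.54), which encodes a water channel, and *Stab2* (0.48). Those most like *Igfbp5* were *Ptn* (0.46), which encodes the growth factor pleiotrophin, *Vim* (0.42), the gene of the filament protein vimentin, and *Podxl* (0.41), which encodes a sialomucin. *Igfbp7* was most like *Gm525* (0.39), *Stab2* (0.37) and *Sema7a* (0.33). No gene reached 0.3 for *Igf1*, *Igf1r* or *Igf2r*, and *Igfbp3* and *Igfbp6* were found in 5.18% and 2.40% of thinned cells, too few to rank.

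Markers of other cell types were set beside the gates. All 6 fibroblast genes were at 0 in 79% of *Stab2* cells, 78.6% of *Fndc1* cells and 81.9% of cells of neither, and their summed level had a mean of 0.330, 0.166 and 0.545 reads per 10000. A single cell made up over 50% of the mean of neither, which was 0.227 without it and then below that of the *Stab2* gate, at 0.307 without its own highest cell. All 6 immune genes were at 0 in 78.6%, 74% and 76.8% of these cells, with a mean sum of 0.351, 0.245 and 1.15 reads per 10000, the last of which was 0.508 without 1 cell. Mural, epithelial and Schwann cell genes were at 0 in 93.7%, 98.5% and 93.1% of all cells. With the 12.1% of cells left out that had a fibroblast, mural, immune, epithelial or Schwann gene above 1, a choice made after seeing the data, each of the 24 differences of means between gates kept its sign. A stricter choice, which also left out cells with a blood endothelial gene above 1, kept 19, 15 and 62 cells of the *Stab2* gate, the *Fndc1* gate and neither, and there *Igfbp4* differed by 0.96 between the *Fndc1* gate and neither, against 0.15 over all cells, and by 0.21 between the *Stab2* and *Fndc1* gates, against 0.95. Immediate early genes, which respond to tissue dissociation, averaged 1.46 ± 0.749, 1.45 ± 0.752 and 1.58 ± 0.701 in the *Stab2* gate, the *Fndc1* gate and neither. Reads of *Xist*, a transcript of female cells, were found together with those of a Y chromosome gene in 52 cells, and without these cells each of the 24 differences also kept its sign.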

How the data were processed

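LECs of 30 pooled C57BL/6 mice were sequenced with Smart-seq3. Reads were aligned to mm10 with STAR and counted with featureCounts (Subread), and cells with fewer than 2000 genes or more than 10% mitochondrial reads were removed in Seurat 4.1.0, per the study's methods and processing notes. The strand setting and gene annotation are not given in the sources used here. The deposited matrix holds natural log values of 1 plus reads per 10000. The methods name log2, but the back-transformed natural log values sum to 10000 in every cell, and 100% of values above 0 were whole reads within 0.01.

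The matrix held 842 cells of 1536 listed wells, with a median of 350746 reads (7433–3524358). The gates held 252 (*Stab2*), 131 (*Fndc1*), 11 (both) and 448 (neither) cells, and after thinning without replacement to 20000 reads (seed 1) 791 cells were left, 235, 124, 11 and 421 by gate. No cell type was called, no doublet caller was run, and no pair of cells was identical. With 1 sample no test was made. A gene was called past 2-fold when mean levels in reads per 10000, with a pseudocount of 0.1 added, had that ratio, if found in 10% of the cells of a gate. Named genes were the members, the pathway, domain and marker lists, and for each member the 3 most similar genes of rho 0.3 or more. Members and lists were chosen with earlier results of these data known. Scripts used Python 3.11.15, NumPy 2.4.6, pandas 2.3.3, SciPy 1.17.1 and Matplotlib 3.10.9 and were tested on simulated data. Other thresholds, depths, filters and pseudocounts were tried, and 1 of them was chosen after seeing the data. Sequences came from RefSeq (GRCm38.p6) and GENCODE M21, and levels per length used the merged exons of GENCODE M21. Aged cells were not analysed here.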

Additional observations from a re-analysis of the deposited data

How the results depend on the processing

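Of 240 differences of means recomputed, all but 4 moved by no more than the natural log of 1.5, and 1 changed sign: *Igf1* between the *Stab2* and *Fndc1* gates, at 0.0082 with a gate threshold of 1.5 against −0.012. With gates by any reads, *Igfbp5* differed by −0.94 between the *Stab2* and *Fndc1* gates. The strictest filter left out cells with a fibroblast, mural, immune, epithelial, Schwann or blood endothelial gene above 1, which were 88.2% of cells. The blood endothelial genes *Emcn* and *Plvap* were above 1 in 75.5% and 38.1% of all these LECs. It kept 19, 15 and 62 cells of the *Stab2* gate, the *Fndc1* gate and neither. There *Igfbp4* differed by 0.96 between the *Fndc1* gate and neither and by 0.21 between the *Stab2* and *Fndc1* gates. *Igfbp3* differed by −0.83 between the *Stab2* and *Fndc1* gates. With a pseudocount of 1 the log2 ratios of the *Stab2* gate against neither were −2.45 for *Igfbp5* and −0.26 for *Igf1*, those of the *Fndc1* gate against neither 0.999 for *Igfbp3* and −0.26 for *Igf1*, and those of the *Stab2* against the *Fndc1* gate −1.10 for *Igfbp3* and −2.79 for *Igfbp5*, since a larger pseudocount draws low levels together. In the *Stab2* gate, thinning gave −3.73 and −4.11 for *Igfbp5* against neither and the *Fndc1* gate. Summed reads gave −4.21 and −4.67 for *Igfbp5* in the same 2 comparisons. For the *Stab2* gate against neither they gave −0.018 for *Igfbp3* and −1.68 for *Igf1*. The cause was not tested. Thinning turned the log2 ratio of *Igf2r* in the *Fndc1* gate against neither to −0.071, and that of *Igf1* between the *Stab2* and *Fndc1* gates to −0.0076, which summed reads put at −0.38.

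Thinning made 2 members lower in the *Stab2* gate than in neither. In the *Fndc1* gate against neither, a pseudocount of 1 left 0 members higher and 0 lower, and a filter of 30% of cells left 1 lower. The share of all genes higher and lower was then, with the 30% filter, 1.48% and 1.81% (*Stab2* against neither), 0.583% and 0.446% (*Fndc1* against neither) and, for higher, 2.61% (*Stab2* against *Fndc1*). With a pseudocount of 1 it was 0.17% and 0.26%, 0.0898% and 0.0399%, and 0.345% and 0.493%. Of 64 shares of cells, 59 moved beyond their interval with depth or a threshold of 1, and all 15 rank correlations kept within 0.1 with all reads. No paired analysis was possible because the labels tie no cell to a mouse or plate and no test was made. Depth limits the shares found of the sparse members *Igf1*, *Igfbp3*, *Igfbp6* and *Igf2r*.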
